A study of Gallus gallus with 2 samples.

Results

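The nuclear genes of oxidative phosphorylation were examined in chicken cells with and without interference against LSD1. The members were taken by gene name, as genes outside the mitochondrial chromosome whose names start with NDUF, UQCR, ATP5 or COX4 to COX8, or equal SDHA, SDHB, SDHC, SDHD or CYC1. This rule took 60 of the 26656 genes listed, and it used no measured value. Complex I held 33 of them, complex II 3, complex III 5, complex IV 8 and complex V 11. Of the named complex II and III genes, SDHB and CYC1 matched no row and were not analysed here.

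Oxidative phosphorylation is the process by which mitochondria make most of the ATP of a resting cell. Complex I takes electrons from NADH and complex II takes them from succinate, and both pass them to ubiquinone. Complex III hands them on to cytochrome c and complex IV to oxygen, while complexes I, III and IV pump protons across the inner membrane. Complex V, the ATP synthase, lets the protons back and makes ATP. Most subunits are encoded in the nucleus, and a small set, including the catalytic core of complex IV, is encoded in mitochondrial DNA, so that the complexes are built from transcripts of both genomes. Germ stem cells of the testis are described as leaning on glycolysis more than their differentiating descendants do.

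RNA-seq compared 1 shLSD1 library with 1 Blank library, both from embryonic testis cells labelled as SSCs, the spermatogonial stem cells. The donor embryos had been incubated for 18.5 days, and the cells of both groups were grown in DMEM with 10% FBS. The shLSD1 cells received by transfection an LSD1 interference vector, LSD1 being a histone demethylase. The Blank cells were untreated and received no vector, so transfection and loss of LSD1 cannot be told apart here.

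The shLSD1 library held 8245826 reads counted on genes and the Blank library 8731455. With 1 library per group, there is no replicate spread with which to compare a difference. Intervals below are exact 95% intervals of the log2 ratio of shLSD1 over Blank, they cover counting error only, and they compare the 2 libraries and not the treatments. LSD1 itself (KDM1A, ENSGALG00000000840) was listed at 0 reads in both libraries, as was an assembled model over the same bases, so its count did not check the labels. The germ cell markers were scarce, since 2 of 10 had at least 20 reads, and their summed level was 5.09 CPM in shLSD1 and 8.82 CPM in Blank. DDX4, the vasa helicase of germ cells, had 11 reads in shLSD1 and 23 in Blank, at −0.95 (−2.17 to 0.11), and NANOG had 0 in both. PIWIL1, with 7 reads in shLSD1 and 2 in Blank, and MAEL, with 2 in shLSD1 and 1 in Blank, went the other way. The rest of the germ cell markers had fewer reads in shLSD1, and the interval of each marker in this list included 0. The Sertoli markers summed to 268 CPM in shLSD1 and 215 CPM in Blank, with AMH and GATA4 at 0. CLDN11 made up most of this sum, with 1544 reads in shLSD1 and 1255 in Blank, at 0.38 (0.27 to 0.49). DMRT1, which another row overlaps on the same strand, was at 0.29 (0.073 to 0.51), and the intervals of SOX9, FSHR and INHA included 0. The Leydig markers summed to 62.7 CPM in shLSD1 and 79.7 CPM in Blank, with NR5A1 at 0. They did not move together: CYP17A1 had 380 reads in shLSD1 and 551 in Blank, and STAR 29 in shLSD1 and 45 in Blank. CYP11A1 had 107 in shLSD1 and 96 in Blank. The peritubular or fibroblast markers summed to 659 CPM in shLSD1 and 768 CPM in Blank, with DCN, COL1A2 and PDGFRA at 0. Most of that sum was LUM, with 4710 reads in shLSD1 and 6098 in Blank. DES went the other way, with 726 in shLSD1 and 601 in Blank, at 0.35 (0.20 to 0.51). Blood markers stood at 27.9 CPM in shLSD1 and 27.3 CPM in Blank, with HBAA and HBZ at 0. CSF1R made up most of this sum, with 186 reads in shLSD1 and 177 in Blank. PTPRC went the other way, with 27 in shLSD1 and 44 in Blank, at −0.61 (−1.37 to 0.10). Of the markers named at 0, AMH, GATA4, NR5A1, DCN, COL1A2 and PDGFRA are each overlapped by another row on the same strand. NANOG, HBAA and HBZ are not. The counts of overlapped markers, DMRT1 among them, and the sums that include them, are uncertain as levels, as described below for the members. These are bulk libraries, so fewer cells of a type and less RNA per cell cannot be told apart, and the part of these marker levels in the results below was not tested.

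Whether a subunit had reads at all went with how its gene was annotated. The gene list joins Ensembl chicken genes with 9548 models that the authors assembled, and 29 of the 60 members are overlapped on the same strand by such a model. Of these 29, 13 were listed at 0 reads in both libraries, 8 had 1 to 19 reads over both, 5 had at least 20 and under 200, and 3 had at least 200. Of the 31 members that no model overlaps, 0 were at 0 reads, 30 had at least 200, and the exception was ATP5A1W with 82. The medians were 2 reads in shLSD1 and 1 in Blank for the overlapped members, against 2043 in shLSD1 and 2183 in Blank for the others. The same split ran through the other protein-coding genes. Of 6810 that a model overlaps on the same strand, 62.0% were at 0 reads, against 14.2% of 8625 that none overlaps there. Overlap on the other strand was not examined. A count of 0 allows up to 3 reads, which is 0.364 CPM in shLSD1 and 0.344 CPM in Blank, but for an overlapped gene the reads may have been given to the model or to neither. Counts of overlapped members are therefore uncertain as levels.

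**Figure D1:**
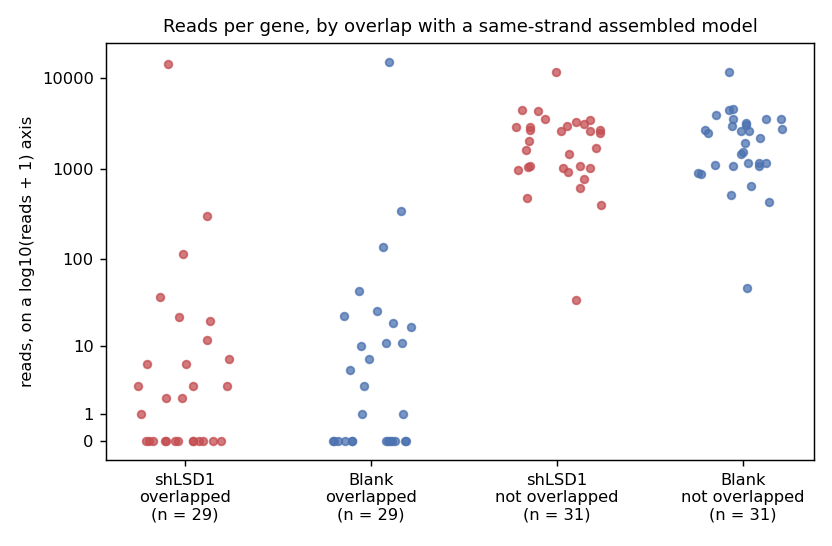
Reads per member in the shLSD1 and in the Blank library, for members overlapped on the same strand by an assembled gene model and for members free of such overlap (vertical axis, reads on a log10(reads + 1) scale, each point 1 gene). The 13 members at 0 reads all lie among the 29 overlapped ones, and 30 of the 31 others have at least 200 reads over both libraries.

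The members at 0 reads in both libraries included NDUFA2, NDUFB1, NDUFS3, NDUFAF1, NDUFAF4 and NDUFAF6 of complex I, SDHC and SDHD of complex II, COX4I1 of complex IV, and ATP5A1, ATP5J2 and ATP5S of complex V. Several of these are central to their complex: SDHC and SDHD anchor complex II in the membrane, COX4I1 is the common form of a large subunit of complex IV, and ATP5A1 is the alpha subunit of the ATP synthase. For 4 of the members at 0 reads the overlapping models were also at 0, and for 2, NDUFB1 and NDUFAF4, the model had at least 200 reads over both libraries. The model over NDUFB1, which carries the MNLL subunit domain, had 807 reads in shLSD1 and 853 in Blank, a log2 ratio of 0.0026 (−0.14 to 0.14). The model over NDUFAF4 had 136 reads in shLSD1 and 175 in Blank. The model over ATP5A1 had 12 reads in shLSD1 and 17 in Blank, so that neither row carried a level like that of the beta subunit described below.

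Among the 33 members with at least 200 reads, the nuclear genes of oxidative phosphorylation were abundant. Their median level was 253 FPKM in shLSD1 and 250 FPKM in Blank, where all genes with at least 200 reads had medians of 15.8 FPKM in shLSD1 and 15.9 FPKM in Blank. Of the 33, 23 were among the 500 highest FPKM values of the shLSD1 library and 23 among those of Blank. FPKM divides reads by model length, and the members have short models, with a median of 955.5 bases against 2010 for all protein-coding genes.

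The complexes differed in level and in how even their subunits were. The 4 measured members of complex IV ranged between 311 and 2736 FPKM in shLSD1 and between 289 and 2590 in Blank. The 4 of complex V ranged between 292 and 1062 FPKM in shLSD1 and between 280 and 1049 in Blank. The 5 of complex III stayed within 253 to 620 FPKM in shLSD1 and 243 to 608 in Blank, a ratio of highest to lowest of 2.45 in shLSD1 and 2.51 in Blank. SDHA, the only measured member of complex II, stood at 182 FPKM in shLSD1 and 186 in Blank. The 19 of complex I were the most uneven as listed, between 14.6 and 515 FPKM in shLSD1 and between 16.2 and 487 in Blank. Their medians were 142 in shLSD1 and 144 in Blank. The low end of complex I was NDUFV3, followed by NDUFA5 and NDUFS8, and each is overlapped on the same strand. Without overlapped rows its lowest member was NDUFA10, at 75.9 FPKM in shLSD1 and 76.5 in Blank. The ratio of highest to lowest was then smaller than in complex IV, where it was 8.81 in shLSD1 and 8.96 in Blank. The ranking of complex I as most uneven thus rested on overlapped rows.

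**Figure D2:**
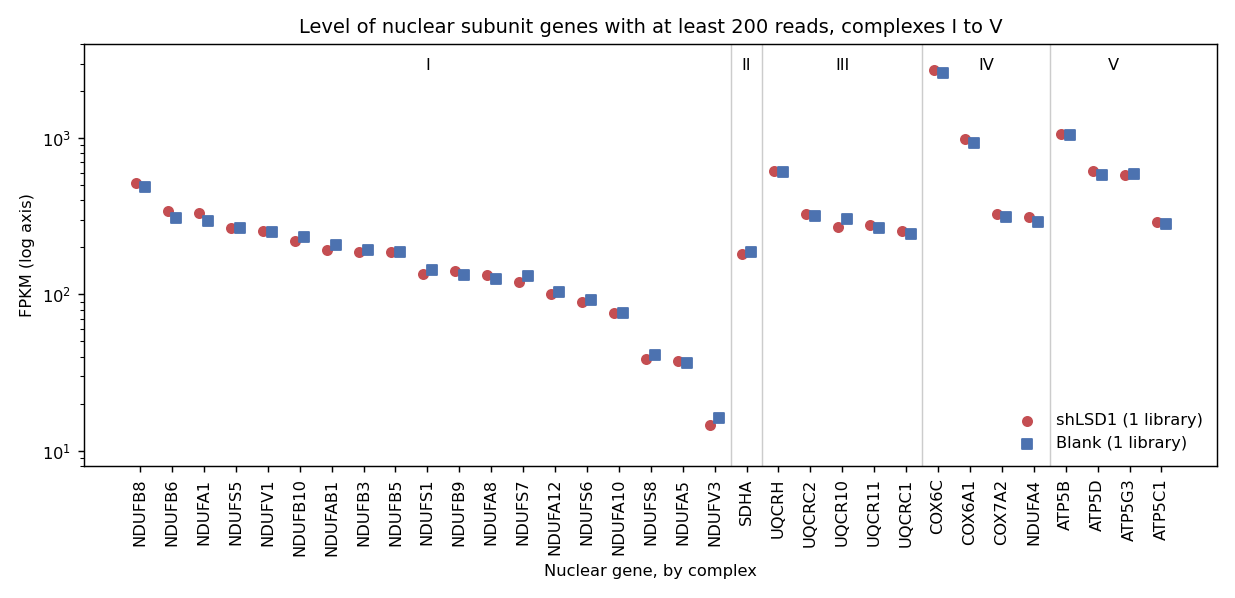
Level of each member with at least 200 reads, in FPKM on a log axis, by complex, with a point for the shLSD1 library and a point for the Blank library. COX6C is the highest at 2736 FPKM in shLSD1 and 2590 FPKM in Blank, and NDUFV3 the lowest at 14.6 FPKM in shLSD1 and 16.2 FPKM in Blank.

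Between the libraries the members moved little and in both directions. The 60 members together took 1.06% of the reads in shLSD1 (87107 reads) and 1.04% in Blank (90539 reads), a log2 ratio of 0.027 (0.013 to 0.040). The 33 members with at least 200 reads had a median log2 ratio of 0.016, with 18 above 0 and 15 below, and none lay farther from 0 than UQCR10 at −0.18. All 6679 genes with at least 200 reads had a median of −0.020, with 3071 above 0 and 3608 below. The 39 members with at least 20 reads had a median of −0.013, with 19 above 0 and 20 below. All 12081 such genes had a median of −0.011, with 5842 above 0 and 6239 below.

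Among the 39 members with at least 20 reads, 6 had an interval above 0 (15.4% of members, background 12.9% of genes) and 3 an interval below 0 (7.69% of members, background 15.4% of genes). The 6 were NDUFA1, NDUFB6, COX6A1, COX6C, NDUFA4 and ATP5D, and the 3 were NDUFS1, UQCR10 and NDUFC2. None was at least 1.5-fold higher in shLSD1 (background 7.04%) and 1, NDUFC2, was at least 1.5-fold lower (background 6.38%). Among the 33 members with at least 200 reads the same 6 lay above 0 (background 17.1%) and 2 below (background 22.2%), and 0 were at least 1.5-fold higher (background 1.39%) or lower (background 1.59%). The higher count stood near its background, and it was set partly by the scaling of the libraries: with upper-quartile scaling 13 members lay above 0 and 1 below, with TMM 11 above and 2 below, and with DESeq2 size factors 5 above and 5 below. Scaling shifts the ratios of all genes alike. The shares of all genes were not computed under these scalings, so the backgrounds above do not apply to these counts.

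**Figure D3:**
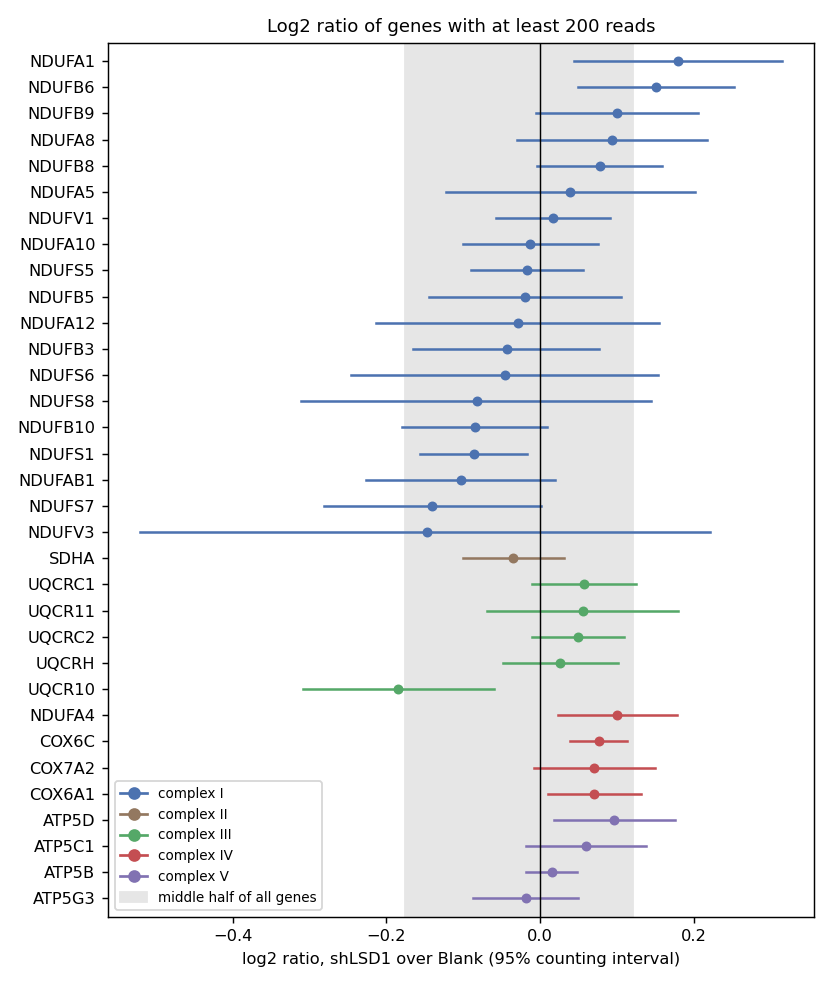
Log2 ratio of shLSD1 over Blank for each member with at least 200 reads, grouped by complex, with bars for the 95% counting interval, a line at 0 and a grey band for the quartiles of all genes with at least 200 reads (−0.18 to 0.12). All 4 members of complex IV lie between 0.070 and 0.10, and those of complex I lie on both sides of 0, between −0.15 and 0.18.

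The ratios of the members were also close together. Of the members, 30 had between 500 and 10000 reads over both libraries, with quartiles of the log2 ratio at −0.042 and 0.070. The 4290 other genes in the same range of reads had quartiles at −0.17 and 0.10, and 36.4% of them lay farther from 0 than any of the 30 members. Reads were not matched further within this range, and the shares are a description, not a test.

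**Figure D4:**
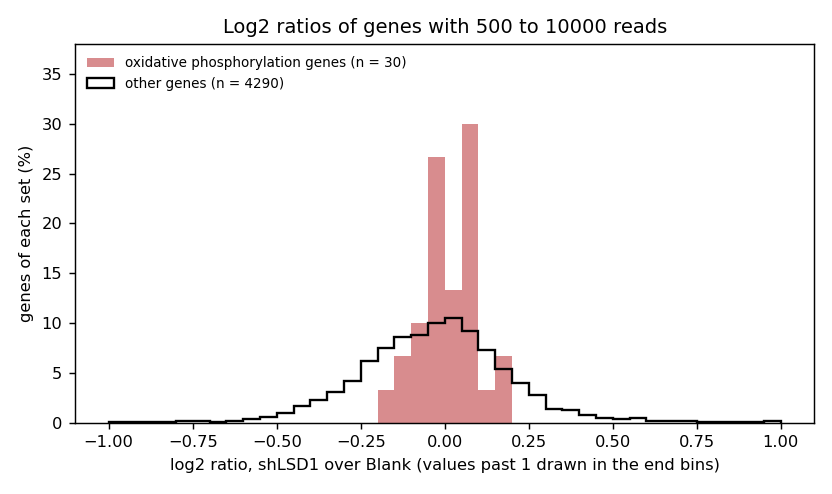
Distribution of log2 ratios of shLSD1 over Blank for the 30 members and for the 4290 other genes with 500 to 10000 reads over both libraries (horizontal axis, log2 ratio; vertical axis, percent of genes of each set, with values past 1 drawn in the end bins). The members lie between −0.18 and 0.18, and the other genes spread on both sides beyond that.

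Complex I, the entry point for electrons from NADH, had measured members on both sides of 0. Its 28 structural members summed to 26125 reads in shLSD1 and 27680 in Blank, a log2 ratio of −0.00085 (−0.025 to 0.024), which became 0.025 with an interval above 0 under upper-quartile scaling. The core subunits, which carry the electron path itself, summed to 7065 reads in shLSD1 and 7754 in Blank, or −0.052 (−0.098 to −0.0050), an interval that took in 0 with TMM (−0.087 to 0.0064) and upper-quartile scaling (−0.072 to 0.021). The accessory subunits, which surround the core, summed to 19060 reads in shLSD1 and 19926 in Blank, or 0.018 (−0.010 to 0.047), an interval that moved above 0 with TMM (0.0012 to 0.059) and upper-quartile scaling (0.016 to 0.073).

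Of the 7 core subunits, 4 had at least 200 reads, and 3 of these had ratios below 0 (all genes, 3608 of 6679). NDUFS1 (ENSGALG00000008606; chromosome 7, 12077169 to 12090936), the largest core subunit and a carrier of iron-sulfur clusters, had 3114 reads in shLSD1 and 3502 in Blank, at −0.087 (−0.16 to −0.017). Its interval took in 0 under upper-quartile scaling. NDUFS7, which holds the iron-sulfur cluster next to ubiquinone, had 766 reads in shLSD1 and 894 in Blank, at −0.14 (−0.28 to 0.00047). NDUFS8, another iron-sulfur subunit, had 304 reads in shLSD1 and 341 in Blank. NDUFV1 (ENSGALG00000026732), where NADH binds, was the exception with 2878 reads in shLSD1 and 3014 in Blank, at 0.016 (−0.058 to 0.090). NDUFV1 and NDUFS8 are neighbours on chromosome 5, with 105749 bases between them.

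Of the 21 accessory subunits, 15 had at least 200 reads, 6 with a ratio above 0 and 9 below (all genes, 3071 above and 3608 below). NDUFA1 (ENSGALG00000008613; chromosome 4, 16454195 to 16454917), a small membrane subunit needed for assembly of complex I in mammals, had the highest ratio of the 33 members with at least 200 reads. Its reads were 925 in shLSD1 and 865 in Blank, or 333 FPKM in shLSD1 and 294 FPKM in Blank, a log2 ratio of 0.18 (0.044 to 0.31). NDUFB6, a membrane-arm subunit, had 1620 reads in shLSD1 and 1545 in Blank, or 342 FPKM in shLSD1 and 308 FPKM in Blank, at 0.15 (0.050 to 0.25). NDUFA1 and NDUFB6 were the accessory subunits whose intervals lay above 0.

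The complex I member with the highest FPKM was NDUFB8 (ENSGALG00000005704), a membrane-arm subunit often used as a marker of assembled complex I. It had 2457 reads in shLSD1 and 2466 in Blank, or 515 FPKM in shLSD1 and 487 FPKM in Blank, at 0.077 (−0.0039 to 0.16). NDUFB9 at 0.099 and NDUFA8 at 0.093 lay on the same side with intervals that included 0. NDUFAB1, the mitochondrial acyl carrier protein, which also serves fatty acid synthesis, had 1018 reads in shLSD1 and 1158 in Blank, at −0.10 (−0.23 to 0.019). NDUFB10, a subunit facing the intermembrane space, was at −0.085, and NDUFA10, NDUFA12, NDUFB3, NDUFB5, NDUFS5 and NDUFS6 lay between −0.046 and −0.013. NDUFA5, which another Ensembl gene overlaps on the same strand, was at 0.039.

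NDUFV3, a small subunit of the NADH-binding module, had the lowest ratio of complex I among members with at least 200 reads. It had 115 reads in shLSD1 and 135 in Blank, at −0.15 (−0.52 to 0.22). The model over it, which carries the NDUFV3 domain, had 435 reads in shLSD1 and 368 in Blank, at 0.32 (0.12 to 0.53), so the direction for this gene differed between its 2 rows. NDUFC2 (ENSGALG00000029172; chromosome 1, 192061273 to 192064192), another membrane-arm subunit, was the sole member past 1.5-fold with an interval away from 0. Its 6 reads in shLSD1 and 17 in Blank gave −1.35 (−3.05 to −0.0095), an interval that took in 0 with TMM and upper-quartile scaling, at 0.761 FPKM in shLSD1 and 2.03 FPKM in Blank, and a model with 0 reads overlaps it. Of the other complex I subunits with under 200 reads, all overlapped by models, NDUFA9 had 38 reads in shLSD1 and 44 in Blank, NDUFS4 had 22 in shLSD1 and 23 in Blank, NDUFB4 had 3 in shLSD1 and 11 in Blank, and the core subunit NDUFV2 had 3 in each. The 5 assembly factors among the members, which help to build complex I and are not part of it, summed to 18 reads in shLSD1 and 30 in Blank.

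Complex II, which is also an enzyme of the citrate cycle, was measured through SDHA alone. SDHA (ENSGALG00000013167; chromosome 2, 85681939 to 85697842), the flavoprotein that oxidises succinate, had 3571 reads in shLSD1 and 3874 in Blank, at −0.035 (−0.10 to 0.031). The difference lay within counting error. SDHD was overlapped by a model with 79 reads in shLSD1 and 76 in Blank, whose domain is that of an NF-kappa-B-activating protein and not of SDHD.

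Complex III had all 5 members above 200 reads, 4 with ratios above 0 and 1 below (all genes, 3071 above and 3608 below). UQCRC1, at 0.057 (−0.011 to 0.12), and UQCRC2, at 0.049 (−0.011 to 0.11), are the core proteins that face the matrix. UQCRC1 had 3479 reads in shLSD1 and 3542 in Blank, and UQCRC2 had 4428 in shLSD1 and 4531 in Blank. UQCRH (ENSGALG00000017380), the acidic hinge protein that helps to hold cytochrome c, was the highest by FPKM, at 620 in shLSD1 and 608 in Blank, with 2862 reads in shLSD1 and 2976 in Blank. UQCR11, a small membrane subunit, had 1052 reads in shLSD1 and 1072 in Blank.

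UQCR10 stood apart from the other complex III members. UQCR10 (ENSGALG00000008066; chromosome 15, 11034185 to 11035607), a small subunit near the Rieske protein, had 973 reads in shLSD1 and 1171 in Blank, or 269 FPKM in shLSD1 and 305 FPKM in Blank. Its log2 ratio of −0.18 (−0.31 to −0.061) was the lowest of the 33 members with at least 200 reads. The 5 members summed to 12794 reads in shLSD1 and 13292 in Blank, at 0.027 (−0.0077 to 0.063), an interval that moved above 0 under TMM (0.039) and upper-quartile scaling (0.054).

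Complex IV, the cytochrome c oxidase, was the complex whose measured members all had ratios above 0. Of all 6679 genes with at least 200 reads, 3071 had ratios above 0. The ratios of the 4 measured members lay within the quartiles of those genes (−0.18 to 0.12). The 7 structural members of complex IV summed to 21454 reads in shLSD1 and 21539 in Blank, at 0.077 (0.050 to 0.10), and the interval stayed above 0 under each other scaling, with the overlapping model reads added, and without COX6C (0.078). COX6C (ENSGALG00000019445; chromosome 2, 128069939 to 128075639), a small membrane subunit, was the highest member by FPKM. It had 11739 reads in shLSD1 and 11792 in Blank, or 2736 FPKM in shLSD1 and 2590 FPKM in Blank, at 0.076 (0.039 to 0.11), which is 1.05-fold.

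The other measured members of complex IV had like ratios. COX6A1, the widely expressed form of subunit VIa, had 4384 reads in shLSD1 and 4421 in Blank, at 0.070 (0.0098 to 0.13), and its interval took in 0 with DESeq2 size factors. COX7A2, the widely expressed form of subunit VIIa, had 2614 reads in shLSD1 and 2636 in Blank, at 0.070 (−0.0081 to 0.15). NDUFA4, named for complex I but a subunit of complex IV, had 2712 reads in shLSD1 and 2679 in Blank, at 0.10 (0.023 to 0.18).

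The rest of complex IV was thinly counted, and each of its genes is overlapped by a model. COX5A, which together with COX4I1 joins the complex early in assembly, had 2 reads in shLSD1 and 1 in Blank. COX7C had 3 reads in shLSD1 and 10 in Blank, and COX7A2L, a factor for joining complexes into supercomplexes, had 7 in each. The names COX4I2, COX5B, COX6A2, COX6B1, COX6B2, COX7A1, COX8A, COX8C and NDUFA4L2, among them widely expressed subunits such as COX6B1 and COX8A, matched no member and were not analysed here.

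Complex V was carried by 4 members with at least 200 reads. ATP5B (ENSGALG00000022539), the catalytic beta subunit, had the most reads of all members, with 14494 in shLSD1 and 15192 in Blank, or 1062 FPKM in shLSD1 and 1049 FPKM in Blank, at 0.015 (−0.018 to 0.048). A model with another domain (the CS domain) overlaps it, with 1840 reads in shLSD1 and 2024 in Blank. ATP5C1, the gamma subunit that turns inside the catalytic head, had 2672 reads in shLSD1 and 2715 in Blank, at 0.060 (−0.018 to 0.14).

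ATP5D (ENSGALG00000026108), the delta subunit of the turning stalk, was the complex V member whose interval lay above 0. It had 2604 reads in shLSD1 and 2579 in Blank, or 620 FPKM in shLSD1 and 579 FPKM in Blank, at 0.096 (0.017 to 0.18). ATP5G3, a gene for the proton-carrying ring, had 3310 reads in shLSD1 and 3552 in Blank, at −0.019 (−0.088 to 0.049), and its partners ATP5G1 and ATP5G2 were not analysed here. The 10 structural members summed to 23138 reads in shLSD1 and 24117 in Blank, at 0.023 (−0.0033 to 0.049), an interval that moved above 0 under 4 of the 5 other scalings.

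The alpha subunit of the ATP synthase is listed in Z and W forms in birds, where females carry the W chromosome. ATP5A1 on chromosome Z was at 0 reads in both libraries. ATP5A1W, on an unplaced scaffold, had 35 reads in shLSD1 and 47 in Blank, or 2.22 FPKM in shLSD1 and 2.81 FPKM in Blank, at −0.34 (−1.02 to 0.32). Whether the reads listed for ATP5A1W came from the W or the Z form was not tested, so they do not show the sex of the cells. The remaining complex V members were at most 46 reads over both libraries: ATP5H, with 20 in shLSD1 and 26 in Blank, ATP5F1, with 2 in shLSD1 and 5 in Blank, and ATP5J, with 1 in each, all stalk subunits.

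The mitochondrially encoded subunits, the partners of these proteins, were far more abundant, and their sums also moved by small amounts. They took 6.32% of reads in shLSD1 (521139 reads) and 6.04% in Blank (527456 reads), at 0.065 (0.060 to 0.071). The 60 nuclear members together were at 0.027 (0.013 to 0.040). In complex IV the mitochondrial sum was at 0.082 (0.075 to 0.089) and the nuclear sum at 0.077. In complex III the mitochondrial cytochrome b (cytb) was at 0.035 (0.014 to 0.056) and the nuclear sum at 0.027. In complex V the mitochondrial sum was at 0.028 (0.0077 to 0.048) beside 0.023 for the nuclear sum, and in complex I it was at 0.039 (0.026 to 0.051) beside −0.00085. The interval of the mitochondrial sum of complex V took in 0 with DESeq2 size factors (−0.0047 to 0.035). These sums share library totals, and their differences were not tested.

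**Figure D5:**
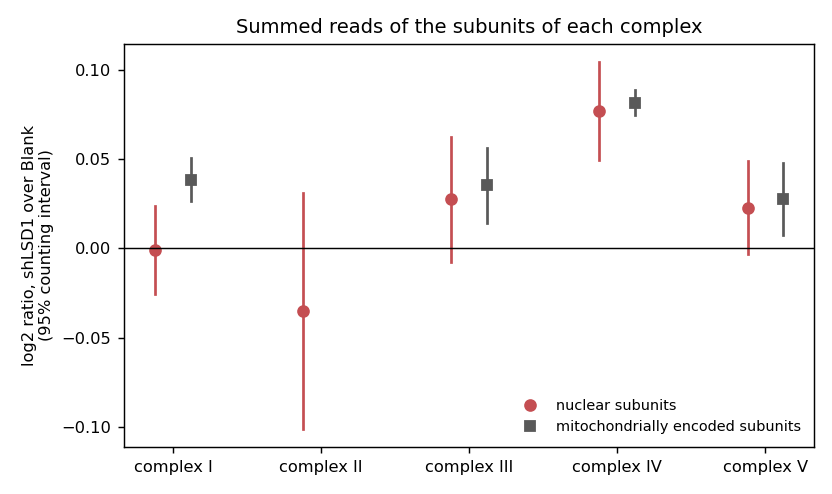
Log2 ratio of shLSD1 over Blank of the summed reads of each complex, for its nuclear subunits and for its mitochondrially encoded subunits, with 95% counting intervals and a line at 0. Complex IV is highest in both, at 0.077 for nuclear and 0.082 for mitochondrially encoded subunits, and complex II has no mitochondrially encoded subunit.

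Within a complex the mitochondrial transcripts did not move as a block. COX1, the catalytic subunit of complex IV, had 234735 reads in shLSD1 and 229867 in Blank, at 0.11 (0.10 to 0.12), while COX3 had 51863 reads in shLSD1 and 56473 in Blank, at −0.040 (−0.058 to −0.023). ND5 at 0.11 and ND3 at −0.16 lay on opposite sides within complex I. ND4 had 10 reads in shLSD1 and 11 in Blank and ND4L 0 in both, so those complex I rows carried almost none of the sum.

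Genes that work around the complexes also showed small differences. In the 4 lists below, 0 genes with at least 20 reads were at least 1.5-fold higher (background 7.04%) or lower (background 6.38%). Among all genes with at least 200 reads these backgrounds were only 1.39% and 1.59%. For intervals above and below 0, the backgrounds at 20 reads were 12.9% and 15.4%. Of 46 assembly factors outside the naming rule, 25 matched a row and 14 had at least 20 reads, with a median log2 ratio of −0.015. TIMMDC1, a complex I assembly factor, had an interval above 0, at 915 reads in shLSD1 and 839 in Blank (0.21, 0.071 to 0.35). Intervals below 0 were those of LRPPRC, which stabilises mitochondrial messenger RNAs, at 1224 reads in shLSD1 and 1657 in Blank (−0.35, −0.46 to −0.25), and COX11, a copper factor for complex IV, at 249 in shLSD1 and 328 in Blank (−0.31, −0.56 to −0.073).

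The electron carriers and exchange proteins had 10 of 24 listed genes with at least 20 reads and a median of 0.0087. SLC25A4, an exchanger of ADP for ATP, was the gene with an interval above 0, at 2374 reads in shLSD1 and 2223 in Blank (0.18, 0.093 to 0.26), and 0 genes had one below. SLC25A6, the most abundant exchanger, had 15513 reads in shLSD1 and 16204 in Blank.

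Of the 19 citrate cycle genes, 14 had at least 20 reads, with a median of −0.038. Of these 14, 0 had an interval above 0 (background 12.9% of genes) and 2 had one below 0 (background 15.4% of genes), near that background. Both of the 2 encode subunits of succinyl-CoA ligase, the enzyme a step before complex II. SUCLA2 had 670 reads in shLSD1 and 935 in Blank (−0.40, −0.54 to −0.25), and SUCLG2 had 586 in shLSD1 and 736 in Blank (−0.25, −0.41 to −0.088). SUCLG1, the subunit shared by both forms of the same enzyme, had 1598 reads in shLSD1 and 1609 in Blank (0.073, −0.028 to 0.17).

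Of 17 regulators of mitochondrial biogenesis and oxygen response, 8 had at least 20 reads, with a median of −0.064. PPRC1, a coactivator of nuclear genes for mitochondria, had an interval above 0, at 1171 reads in shLSD1 and 1118 in Blank (0.15, 0.030 to 0.27). HIF1A, the oxygen-sensing transcription factor, had an interval below 0, at 6784 reads in shLSD1 and 9020 in Blank (−0.33, −0.37 to −0.28). PPARGC1A, the coactivator PGC-1alpha, had 89 reads in shLSD1 and 77 in Blank, and TFAM, which packages mitochondrial DNA, had 734 in shLSD1 and 813 in Blank. In the 4 lists together, 3 genes had intervals above 0 and 5 below 0, of 46 genes with at least 20 reads, beside backgrounds of 12.9% and 15.4%.

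The 14 members with at least 1 and under 200 reads were lower in shLSD1 as a sum, and this set was formed after the values were seen. They summed to 160 reads in shLSD1 and 225 in Blank, at −0.41 (−0.71 to −0.11), and to 154 in shLSD1 and 208 in Blank without NDUFC2, at −0.35 (−0.66 to −0.044). Scaled to the library totals, 9 of the 14 had ratios below 0 and 5 above. The models that overlap members under 200 reads summed to 1124 reads in shLSD1 and 1228 in Blank, at −0.045, with an interval of −0.16 to 0.073 that includes 0. Most of that sum was 1 model, the one over NDUFB1, with 807 reads in shLSD1 and 853 in Blank. The 6681 other protein-coding genes in this read range were at 0.044 (0.032 to 0.057). The 2371 of them that a model overlaps were at 0.0081 (−0.019 to 0.035), beside −0.43 (−0.77 to −0.089) for the 13 overlapped members.

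The members lie on 27 chromosomes and scaffolds, with 8 on chromosome 1, 7 on chromosome 2 and 6 on chromosome 5. Chromosome Z holds 4, ATP5A1, COX7C, NDUFAF2 and NDUFS4, each with under 50 reads over both libraries and each overlapped by a model. The levels of these 4 genes could not be read from their rows.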

How the data were processed

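RNA-seq libraries were made from 1 µg of total RNA of each of 2 cell samples. Per gene, the authors deposited an unnormalized whole-number count and the FPKM of each gene, the count divided by gene length and library size. The submitters' processing notes name Bowtie 0.12.2 and the mouse builds mm8 and mm9, while the gene identifiers are chicken Ensembl genes. The chicken build and the counting tool are not given in the sources used here, so coordinates are printed as the deposited tables give them. A further 4 columns of values match none of the labels and were left aside, as was the authors' comparison table, which holds their fold changes and p-values.

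Counts were divided by the listed totals, and log2 ratios were taken with a prior count of 0.5. Each gene was compared by a two-sided exact binomial test with Clopper-Pearson 95% intervals. Reads that are PCR copies are not independent molecules, so intervals and limits cover counting error only. Sums used the reads of all structural members of a complex, and a model was taken as overlapping if it shared bases with a member on the same strand. Nothing shows strand-specific counting, so genes that overlap may share reads. Gene names came from the tables, with older symbols from a RefSeq gene table of assembly GRCg7b.

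Named genes were those of highest FPKM, largest rise and largest fall in each complex, members past 1.5-fold with an interval away from 0, core and isoform subunits, and those at 0 reads. Others were named after their values were seen. Some results are not reported by name. The members and lists were chosen with earlier results of these data known. The alternatives were edgeR's TMM and upper-quartile scaling, DESeq2's size factors, totals without the 20 most abundant or the mitochondrial genes, other filters, a prior count of 5, FPKM with a pseudocount of 0.1 or 1, a 2-fold threshold and reads of overlapping models added. The calculations were tested on simulated data. Versions were matplotlib 3.10.9, pandas 2.3.3, scipy 1.17.1 and numpy 2.4.6 under Python 3.11.15, with DESeq2 1.42.0 and edgeR 4.0.16 under R 4.3.3.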

Additional observations from a re-analysis of the deposited data

How the results depend on the processing

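No paired analysis was possible because shLSD1 and Blank have 1 library each. Scaling mattered most, since the members' ratios lie near 0: relative to the listed totals, all ratios shifted by 0.011 with TMM, −0.012 with DESeq2 size factors and 0.026 with upper-quartile scaling. Members with an interval above 0 numbered 6, 11 with TMM and 13 with upper-quartile scaling, and those with an interval below 0 numbered 3, 5 with DESeq2 size factors and 1 with upper-quartile scaling. The matching shares of all genes under these scalings were not computed. Members at least 1.5-fold lower numbered 1, 3 with reads of overlapping models added, 5 with no filter on low counts, 0 with at least 200 reads and 0 without overlapped members, an alternative chosen after seeing the data. Members at least 1.5-fold higher numbered 0, and 1 with no filter. The complex I sum changed sign and passed the test, at 0.025, with upper-quartile scaling. The complex III sum passed the test at 0.039 with TMM and 0.054 with upper-quartile scaling. The complex V sum passed it at 0.034 with TMM, 0.049 with upper-quartile scaling, 0.027 without the 20 most abundant genes and 0.026 without the mitochondrial chromosome. The scaling factors themselves account for the changes under scaling. The other 75 values for counts, medians and sums met looser rules. Counts stayed within 1.5 times, and sums kept their side of the test threshold. Medians stayed within the counting interval of NDUFA10, the member at the median. Some of these values changed sign near 0. The complex I sum was at 0.011 with TMM, and the members' median at 0.013 with upper-quartile scaling. Among named genes, 82 values kept their side of the threshold of the exact test, and 11 passed it. ATP5G3, among the 82, changed sign to 0.0069 with upper-quartile scaling. The threshold was lost by 2, COX6A1 with DESeq2 size factors (0.058) and NDUFS1 with upper-quartile scaling (−0.061). Complex II without the subunit with most reads gave no value, since its other rows were at 0 reads. The planned motif description of promoters was not run. Depth limits the 14 members with at least 1 and under 200 reads and the 13 at 0. The intervals of the core, accessory and mitochondrial sums under other scalings were added after seeing the data.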

Other observations

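Some rows outside the naming rule describe further subunits. The row named rbf (ENSGALG00000015372, chromosome Z), annotated as subunit e of the ATP synthase, had 2490 reads in shLSD1 and 2453 in Blank, or 799 FPKM in shLSD1 and 742 FPKM in Blank, a log2 ratio of 0.10 (0.023 to 0.19). The row named [2Fe-2S], annotated as the Rieske iron-sulfur protein of complex III, had 72 reads in shLSD1 and 99 in Blank, at −0.37 (−0.84 to 0.076). An assembled model with the domain of complex I subunit C1 had 1795 reads in shLSD1 and 1863 in Blank, at 0.029 (−0.065 to 0.12). Another model with the domain of ATP synthase subunit c had 213 reads in shLSD1 and 231 in Blank, at −0.034 (−0.31 to 0.24). These rows were chosen after their annotations and values were seen.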
